A study of Mus musculus with 4 samples.

Results

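5-Hydroxymethylcytosine (5hmC) is the base that TET dioxygenases make by oxidising 5-methylcytosine in DNA. It is found mostly at CG dinucleotides of gene bodies and enhancers, and it is an intermediate in the removal of DNA methylation as well as a mark that can persist. The regions described here are the dense clusters of 5hmC peaks in chondroprogenitors. They are the peaks of the day 0 list that shared a fixed 100 kb bin, counted from the start of the chromosome by the start of the peak, with at least 2 others. The rule took 232 of 1050 day 0 peaks (22.1%) in 35 of the 802 bins that held any day 0 peak (4.36%). Of these, 224 peaks in 34 bins lay on nuclear chromosomes and 8 peaks in 1 bin made up the mitochondrial set, which is described apart. The number of day 0 peaks in a bin chose the members, so their density is a description and not a result.

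ATDC5, the source of all libraries, is a chondrogenic line of mouse cells. It was kept as chondroprogenitors in medium with serum and ascorbic acid, and insulin, transferrin and selenite were added to this medium to obtain chondrocytes. The labels name no genetic change in any group. A commercial kit captured the 5hmC-bearing genomic DNA that was sequenced. The labels describe 2 libraries of chondroprogenitors at day 0 and 2 of chondrocytes, 1 at day 19 and 1 at day 20. The deposited data are 1 peak list for each stage, made from merged libraries, with positions and gene symbols. No peak height, read depth or replicate spread was available to the comparisons, so no test between stages is given. The intervals are Wilson 95% intervals, which cover counting error and treat peaks as independent, although peaks of 1 bin share a locus. A peak list from many cells cannot tell fewer cells with 5hmC at a site from less of it per cell.

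Day 0 peaks, clustered or not, touched few annotated promoters. Of the 49 promoter windows of 300 bases (250 before and 50 after a transcription start) in the 34 nuclear bins, 3 were touched by a clustered day 0 peak (6.12%). Over the whole genome any day 0 peak touched 15 of 32817 windows (0.0457%). The dense bins were chosen for their day 0 peaks, so nothing is read from the contrast of these shares. Of the 15 windows, 3 were touched by nuclear clustered peaks, which made up 21.3% of day 0 peaks. The clustered peaks at these 3 windows had no day 20 peak over them. The sequences, from RefSeq on GRCm38.p6, are shown because they are the promoter sequence under the clusters, and capitals mark the bases inside the peak. They belong to A530040E14Rik, a long noncoding RNA (chr1:85105843-85106142, plus strand), to Sp110, a nuclear body protein of the SP100 family (chr1:85598761-85599060, minus strand), and to Gm36079, a predicted protein-coding gene (chr13:120027330-120027629, minus strand).
A530040E14Rik: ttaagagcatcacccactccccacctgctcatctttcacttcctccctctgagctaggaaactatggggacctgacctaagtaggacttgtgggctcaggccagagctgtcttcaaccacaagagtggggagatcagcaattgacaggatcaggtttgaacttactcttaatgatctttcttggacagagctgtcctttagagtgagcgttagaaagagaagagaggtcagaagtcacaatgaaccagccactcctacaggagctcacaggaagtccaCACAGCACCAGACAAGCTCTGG
Sp110: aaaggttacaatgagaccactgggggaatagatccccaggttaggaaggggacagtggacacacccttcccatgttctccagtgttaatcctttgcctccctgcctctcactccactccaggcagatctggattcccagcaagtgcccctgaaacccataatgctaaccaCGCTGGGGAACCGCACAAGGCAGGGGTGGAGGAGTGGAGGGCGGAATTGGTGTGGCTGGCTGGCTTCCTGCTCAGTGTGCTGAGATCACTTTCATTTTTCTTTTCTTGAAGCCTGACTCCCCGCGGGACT
Gm36079: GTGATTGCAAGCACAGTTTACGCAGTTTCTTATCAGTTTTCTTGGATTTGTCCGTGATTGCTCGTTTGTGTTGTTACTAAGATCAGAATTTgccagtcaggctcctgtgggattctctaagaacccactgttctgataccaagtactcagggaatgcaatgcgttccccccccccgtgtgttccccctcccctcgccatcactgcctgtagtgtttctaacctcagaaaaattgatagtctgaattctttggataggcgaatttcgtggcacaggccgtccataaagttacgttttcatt
The dinucleotide CG, which reads the same on both strands, occurred 5 times in the Sp110 window, and all 5 lay under the peak. The Gm36079 window held 10, of which 3 lay under the peak. The A530040E14Rik window held 1, outside the 22 bases that the peak covered. The median over all windows was 7 (quartiles 3 and 20), and 94.6% of windows held at least 1. In the windows of the dense bins the median was 3.

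The share of peaks matched at day 20 was smaller among clustered peaks than among the remaining day 0 peaks. A day 20 peak overlapped 73 of the 224 nuclear clustered peaks by at least 1 bp (32.6%, 26.8 to 39%), beside 49.5% of all day 0 peaks. Among the 818 day 0 peaks outside dense bins 444 were overlapped (54.3%, 50.9 to 57.7%). The difference, clustered minus other, was -21.7 percentage points (Newcombe interval -28.4 to -14.4). It was not tested, since there was 1 list per stage. The densest bin, on chromosome 9, supplied 36 of the 73 overlapped peaks. Without it 37 of 171 were overlapped (21.6%, 16.1 to 28.4%), and without the 2 densest bins 29 of 142 (20.4%, 14.6 to 27.8%).

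**Figure D1:**
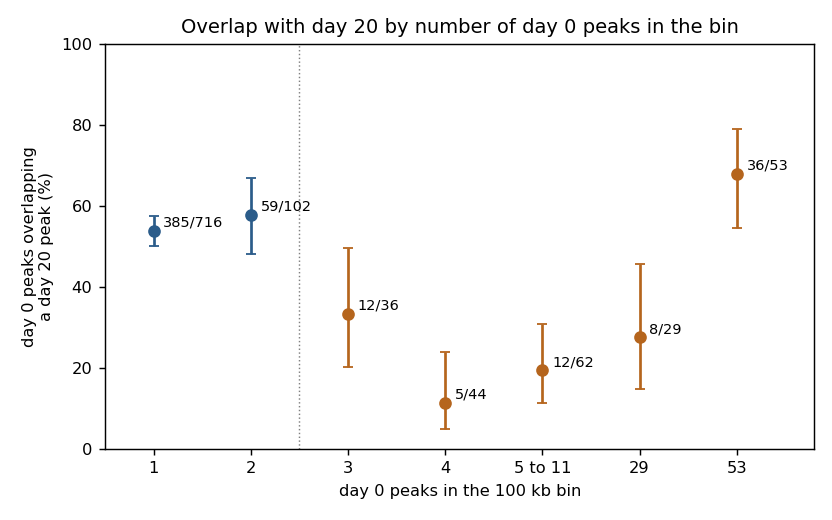
Share of day 0 peaks matched by overlap at day 20 (vertical axis, percent, with Wilson 95% intervals) by the number of day 0 peaks in their 100 kb bin, with the counts beside each point. Blue points left of the dotted line are bins below the threshold, where the shares were 53.8% and 57.8%. Brown points are dense bins, of which the bin with 53 peaks stood at 67.9% and the others at 33.3% or below.

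On either side of the threshold the shares were as follows. Bins with exactly 3 day 0 peaks, just inside the rule, numbered 12, and 12 of their 36 peaks were overlapped (33.3%, 20.2 to 49.7%). Bins with exactly 2, just outside, numbered 51, and 59 of their 102 peaks were overlapped (57.8%, 48.1 to 67.0%). In the 11 bins with 4 day 0 peaks 5 of 44 were overlapped (11.4%, 4.95 to 24.0%).

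The dense bins also differed from other bins with day 0 peaks in how many peaks the chondrocyte list placed in them. At least 1 day 20 peak started in 19 of the 34 dense bins (55.9%, 39.5 to 71.1%). Over all 25716 bins of the autosomes and the X chromosome the share was 54.2%. In the 767 bins with 1 or 2 day 0 peaks it was 87.1% (84.5 to 89.3%). The dense bins held 74 day 20 peaks, with a median of 1 per bin (quartiles 0 and 2.75, highest 14). The bins with 1 or 2 day 0 peaks had a median of 5 (quartiles 2 and 8). So the dense bins stood close to an average bin by day 20 peaks, while bins with sparse day 0 peaks stood above it.

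In 15 dense bins, with 61 day 0 peaks, no day 20 peak started. In a further 2, with day 20 peaks elsewhere in the bin, no day 0 peak was overlapped. In 2 bins every day 0 peak was overlapped. In 4 bins the day 20 peaks outnumbered the day 0 peaks. A day 0 peak lay under 42 of the 74 day 20 peaks (56.8%). Over the whole day 20 list the share was 0.841%, but the rule chose bins rich in day 0 peaks, so nothing is read from that contrast.

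**Figure D2:**
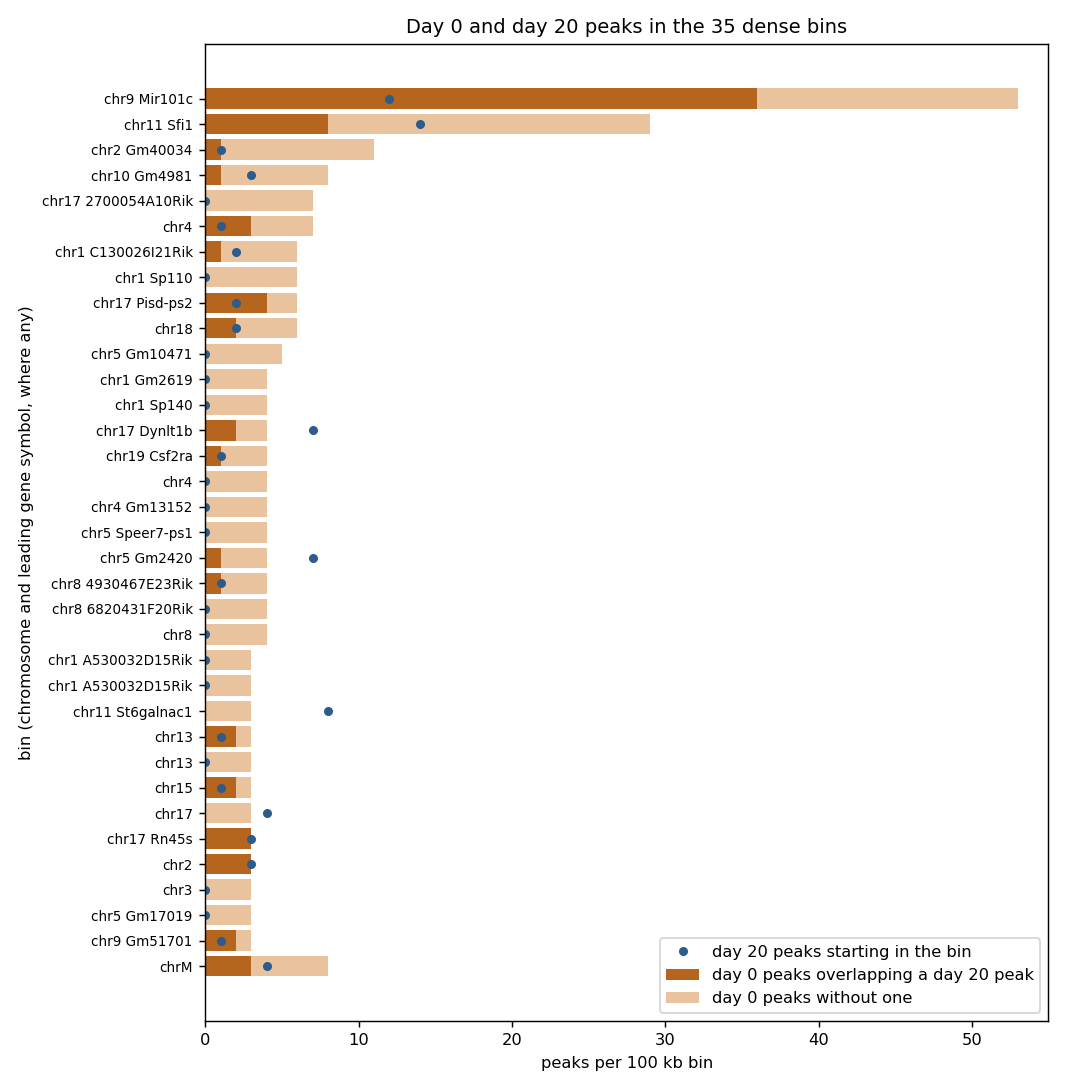
Number of peaks (horizontal axis) in each of the 35 dense bins, named by chromosome and leading gene symbol where there is one. Dark bars are day 0 peaks that overlapped a day 20 peak, light bars those that did not, and blue points the day 20 peaks that start in the bin; the bins of chromosomes 9 and 11 hold 53 and 29 day 0 peaks and every other nuclear bin holds 11 or fewer.

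In width the clustered peaks resembled the other day 0 peaks by the median, but not by bin. Their median was 136 bp (quartiles 91.5 and 193 bp, range 58 to 1301 bp), beside 134 bp (quartiles 120 and 161.75 bp) for the others. The chromosome 9 bin had narrow peaks, with a median of 88 bp, and the chromosome 11 bin wide ones, with a median of 408 bp. For 71 of the 73 overlapped clustered peaks the matching day 20 peak was the wider of the pair. The whole day 20 list had a median of 591 bp and no peak under 176 bp. A wider day 20 partner was therefore nearly fixed beforehand, and nothing is read from this count. The median ratio of day 20 to day 0 width was 5.31 over the 73, beside 4.71 over the other overlapped day 0 peaks. Consecutive peaks within a dense bin were separated by a median of 864 bp, and 97 of 190 gaps were shorter than 1 kb.

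A smaller share of the clustered peaks than of the others lay in annotated genes, and a larger share lay in pseudogenes. A gene of any type was overlapped by 90 of 224 (40.2%, 34 to 46.7%), beside 55.1% of all day 0 peaks and 58.8% (55.4 to 62.1%) of those outside dense bins. Protein-coding genes were overlapped by 56 (25%, 19.8 to 31.1%), beside 48.8% (45.4 to 52.2%). Pseudogenes were overlapped by 27 (12.1%, 8.42 to 17%), beside 11 of 818 (1.34%, 0.753 to 2.39%). Without the densest bin 52.6% lay in a gene, and without the 2 densest bins 45.8%. In the deposited annotation 76 of the 224 carry a gene symbol (33.9%), in 19 of the 34 bins.

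A large part of the clustered peaks, but a smaller part of the dense bins, lay near chromosome ends. The mouse autosomes have their centromere at the low end of the coordinates. Below 3.5 Mb lay 104 of the 224 clustered peaks (46.4%), in 6 of the 34 bins, beside 16 of 818 other day 0 peaks (1.96%, 1.21 to 3.15%) and 157 of 56691 nuclear day 20 peaks (0.277%). The 2 densest bins are among these 6, and without them the share was 22 of 142 (15.5%, 10.5 to 22.3%). Within 500 kb of the highest annotated or peak position of their chromosome lay another 18 (8.04%), in 3 bins, beside 5 of 818 (0.611%). The dense nuclear bins lay on 14 chromosomes, and the X chromosome, like several autosomes, had none.

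The densest bin was the 3.0 Mb bin of chromosome 9, with 53 day 0 peaks between 3000370 and 3038241, or 1.4 per kb. They ranged from 58 to 299 bp and covered 5843 bp. In this bin 12 day 20 peaks started, and 1 more, from 2999911 to 3001543, reached into it. The widest, 2674 bp from 3025231 to 3027904, covered 8 separate day 0 peaks, the most under any day 20 peak of the dense bins. The day 20 peaks covered 11081 bp of the bin, 1.90 times the day 0 length. Thus the same stretch appeared as many narrow peaks at day 0 and as fewer, wider ones at day 20. The 12 day 20 peaks that started here had a median of 556 bp, beside 591 bp in the whole day 20 list. Day 20 peaks were wider than day 0 peaks across the lists, so this contrast in width is not particular to the bin.

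The one annotated gene of this bin is Mir101c, a microRNA, to which the authors assigned 3 of the 53 peaks and the last day 20 peak (3037914 to 3038494). No day 0 peak overlapped it by position. The nearest ended 439 bp below the mature sequence (chr9:3038680-3038698, minus strand), which is shown because it is the sole gene name in this bin. Capitals mark the seed, bases 2 to 8.
mmu-miR-101c: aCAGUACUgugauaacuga

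The 3.1 Mb bin of chromosome 11 held 29 day 0 peaks over 99.7 kb. Sfi1, which encodes a centrin-binding protein of the centrosome, carried 20 of them in a gene of 71.5 kb (3131850 to 3203347), and Pisd-ps1, a transcribed pseudogene of the phosphatidylserine decarboxylase gene Pisd, carried 5. By the authors' symbols Sfi1 had 18, Pisd-ps1 had 5 and Eif4enif1, a carrier of the cap-binding protein eIF4E, had 2. By position none lay in Eif4enif1. The day 0 peaks were wide, up to 1168 bp, and covered 13514 bp, the longest of any nuclear dense bin.

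The chondrocyte list placed 14 peaks in the same bin, covering 17939 bp, 11 of them in Sfi1. Of these 14, 8 overlapped a day 0 peak. A day 20 peak overlapped 8 of the 29 (27.6%, 14.7 to 45.7%), and the widest day 20 peaks, 3686 bp from 3142914 and 3082 bp from 3160455, overlapped none of them. Both stages thus had many peaks along Sfi1.

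**Figure D3:**
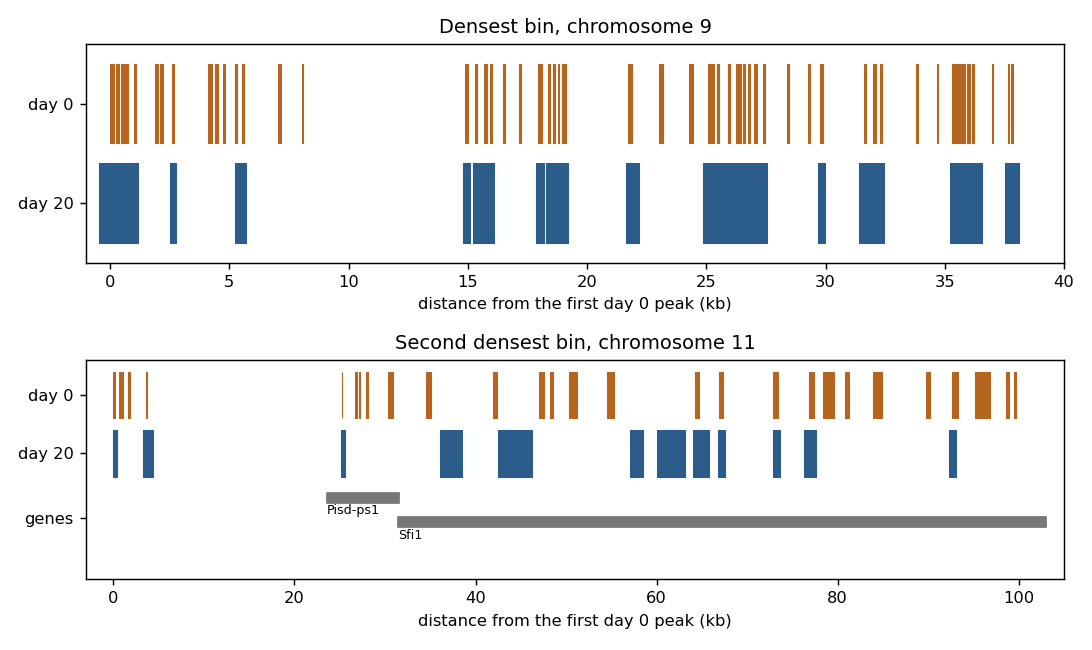
Positions of day 0 peaks (brown) and day 20 peaks (blue) in the 2 densest bins, with distance from the first day 0 peak in kb on the horizontal axis and genes in grey. On chromosome 9 day 20 peaks cover groups of up to 8 day 0 peaks, while across Sfi1 on chromosome 11 8 of 29 day 0 peaks are overlapped.

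Another pseudogene named after Pisd, whose product makes phosphatidylethanolamine in mitochondria, lay in a dense bin of chromosome 17, and Pisd itself lay in one of chromosome 5. In the 3.0 Mb bin of chromosome 17, Pisd-ps2 carried 4 of 6 day 0 peaks by position and 5 by the authors' symbols. A day 20 peak overlapped 4 of the 6, and 1 day 20 peak of 1278 bp (3081849 to 3083126) covered 3 of them. In the 32.7 Mb bin of chromosome 5 all 4 day 0 peaks lay in the pseudogene Gm2420, whose annotated end overlaps that of Pisd. There 7 day 20 peaks started and 1 of the 4 day 0 peaks was overlapped. By position 4 of these day 20 peaks lay in Gm2420 and 3 in Pisd, which had no day 0 peak. Of the 7 genes found from the list of the Sfi1 region, 3 carried a day 0 peak and 5 a day 20 peak by position. Sfi1, Pisd-ps1 and Pisd-ps2 carried both, Pisd and Patz1 day 20 peaks only, and Drg1 and Eif4enif1 neither. Over all protein-coding genes, an unlike set since the list holds pseudogenes, 1.76% had a day 0 peak and 40.5% a day 20 peak. The list was chosen with earlier results known, so its counts are a description.

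The remaining low chromosome ends held few or no genes. The 3.0 Mb bin of chromosome 4 has no annotated gene. It held 7 day 0 peaks, of which the last 3 (3089511 to 3091214) lay under 1 day 20 peak of 1797 bp. The 3.0 Mb bin of chromosome 18 held 6 day 0 peaks within 5.2 kb, of which 2 were overlapped. The 3.3 Mb bin of chromosome 13 held 3 within 591 bp, of which 2 lay under 1 day 20 peak of 295 bp.

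At the high ends 3 bins held the 18 peaks counted above. The 181.9 Mb bin of chromosome 2, whose last peak lay 68.6 kb from the highest annotated position, held 11 day 0 peaks, 4 of them in the noncoding RNA Gm40034. A day 20 peak of 308 bp started at the same base as the first of them, 181917289, and the other 10 had none. On chromosome 19 the 61.2 Mb bin held 4, with 2 in Csf2ra, which encodes the alpha subunit of the receptor for GM-CSF, and 1 of the 4 was overlapped. On chromosome 13 the 120.0 Mb bin held 3, among them the peak at the Gm36079 promoter shown above, and no day 20 peak.

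Chromosome 1 had the most dense bins, 6 with 26 day 0 peaks in all between 85079769 and 85625516. This region carries the SP100 family, whose proteins form nuclear bodies and are best known from leukocytes. Sp140 carried 8 day 0 peaks in 57.5 kb and Sp110, which overlaps it, carried 7 in 40.1 kb, with 4 and 6 in the 85.5 Mb bin. Peaks in the stretch shared by the genes count for both. By the authors' symbols, which give each peak to 1 gene, Sp110 had 6 and Sp140 had 4. The widest peaks of the region, 574 bp from 85592127 and 467 bp from 85592735, lay in both genes. Neither gene had a day 20 peak.

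The lower part of the region held gene models of the same neighbourhood. Gm38510 carried 6 day 0 peaks, and C130026I21Rik, which lies within it, carried 5 of these. A530032D15Rik carried 4 and A530040E14Rik carried 2, with 1 peak in both. Gm2619 carried 2, and Gm7281 and Gm7592 shared another 2. In the 6 bins 2 day 20 peaks started, both in the 85.2 Mb bin, and 1 of the 26 day 0 peaks was overlapped. It lay from 85280359 to 85280574, in Gm38510.

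**Figure D4:**
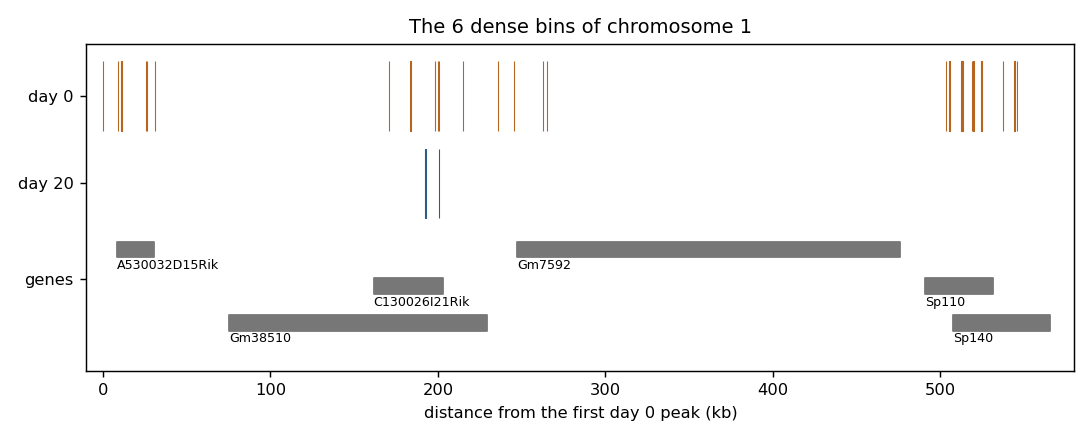
Day 0 peaks (brown), day 20 peaks (blue) and genes (grey) in the 6 dense bins of chromosome 1, by distance from the first day 0 peak in kb; peaks outside dense bins are not drawn. The 26 day 0 peaks fall in 3 groups, and the 2 day 20 peaks lie in the middle group.

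Of the 12 genes in the list of the SP100 family and its neighbours, 7 carried a clustered day 0 peak and 8 any day 0 peak. A day 20 peak was carried by 2 of the 12, beside 40.5% of all protein-coding genes. These 2, Gm38510 and the C130026I21Rik within it, share the same 2 day 20 peaks. The list also holds noncoding entries, A530040E14Rik and the pseudogene Gm2666, so it is set beside an unlike set of genes. Sp100 itself, Csprs, Gm7609 and Gm15433 had no peak of either stage, and Gm2666 had 1 day 0 peak outside the dense bins. The list was chosen with its peaks known, so its counts are a description. Over all protein-coding genes 1.76% had a day 0 peak and 14 of 21900 had a clustered one.

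In the 39.8 Mb bin of chromosome 17 and the 98.6 Mb bin of chromosome 2 every day 0 peak was overlapped at day 20. The first holds ribosomal RNA sequence, and the authors assigned its 3 peaks to Rn45s, the precursor of the large ribosomal RNAs. By position 2 lay in Rn18s-rs5, and 1 of these also in AY036118. They measured 963, 352 and 1301 bp, and the matching day 20 peaks 647, 428 and 1078 bp, so 2 of the 3 were narrower at day 20. These were the 2 exceptions among the 73 overlapped peaks. The bin of chromosome 2 held 3 day 0 peaks of 766, 463 and 1101 bp outside genes, and day 20 peaks of 924, 876 and 1269 bp covered them. The upper quartile of all clustered peaks was 193 bp, and peaks of similar width to these occurred in other bins, chiefly that of Sfi1.

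The other dense bins are given by chromosome and by the genes they hold. The 58.2 Mb bin of chromosome 10 held 8 day 0 peaks within 17 kb around Duxf3, a double homeobox gene of the family active in the early embryo. By position LOC100504180 carried 3 and Duxf3 carried 1, and 1 of the 8 was overlapped at day 20. The authors assigned 2 of the 8 to Gm4981 and 1 to Dux. The 15, 15.6 and 26.0 Mb bins of chromosome 5 held 3, 4 and 5 day 0 peaks and no day 20 peak. The 15.6 and 26.0 Mb bins lie among Speer genes, a rodent family known from spermatogenesis, with peaks in Speer4cos, Gm30613, Gm10471, Gm5067 and Gm6089, 1 in each. In the 15 Mb bin the authors assigned 1 of 3 to Gm17019, and in the 15.6 Mb bin 2 of 4 to Speer7-ps1.

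On chromosome 8, the 19.7, 20.2 and 20.5 Mb bins held 4 day 0 peaks each. In the first, 4930467E23Rik carried 3 and 1 of the 4 was overlapped by a day 20 peak of 411 bp. The other two had no day 20 peak, and by position 1 peak each lay in Gm40468 and 6820431F20Rik. All 8 peaks of these latter bins were at most 134 bp wide.

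On chromosome 4, the 145.5 and 147.4 Mb bins, which hold the zinc finger genes Zfp990 and Zfp982, had 4 day 0 peaks each and no day 20 peak. None lay in a gene by position, although the authors assigned all 4 of the latter bin to Gm13152. The order of spacing was alike in both. Starts were 18360, 9749 and 687 bp apart in the former and 14717, 9912 and 805 bp apart in the latter.

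A similar likeness was seen on chromosome 17. The 13.5 Mb bin held 7 day 0 peaks, 3 of them in the noncoding RNA 2700054A10Rik, and no day 20 peak. The 13.6 Mb bin held 3 day 0 peaks within 519 bp and 4 day 20 peaks farther along. These 10 peaks formed 3 tight groups, each with a peak of 78 or 79 bp followed by a wider one starting 209, 158 and 155 bp later. The pairs of bins compared for spacing on chromosomes 4 and 17 were picked after their positions were seen, and whether their sequences are copies was not analysed here.

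**Figure D5:**
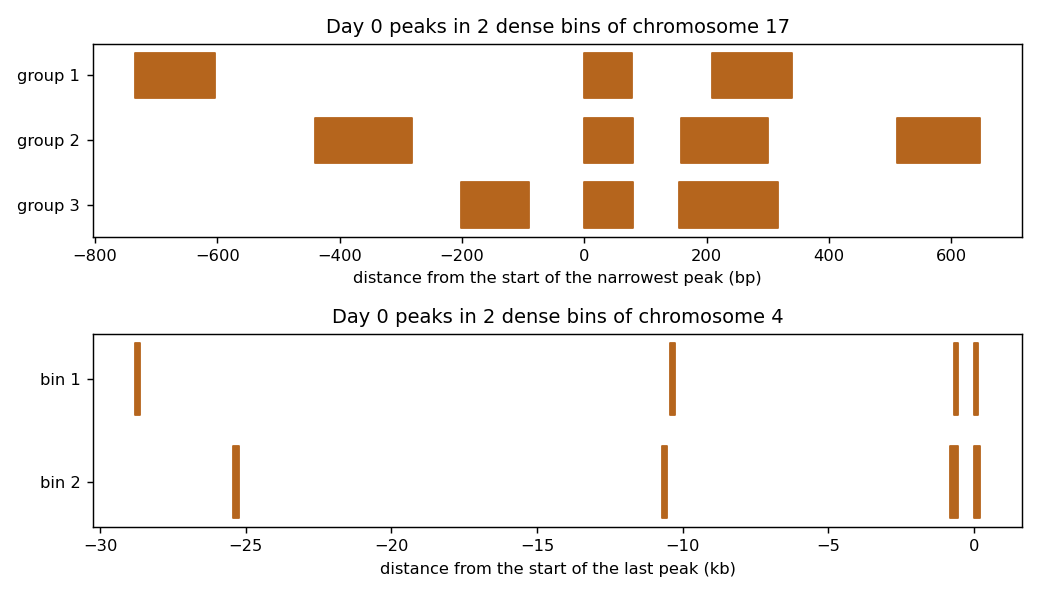
Day 0 peaks drawn to scale. The upper panel aligns the 3 groups of chromosome 17 at the start of their narrowest peak (78 or 79 bp; axis in bp), and the lower panel aligns the 145.5 Mb bin (bin 1) and the 147.4 Mb bin (bin 2) of chromosome 4 at the start of their last peak (axis in kb).

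The 6.4 Mb bin of chromosome 17 held 4 day 0 peaks, 2 in the pseudogene Gm29719 and 1 in Dynlt1b, a dynein light chain gene. It held 7 day 20 peaks, and 2 of the 4 day 0 peaks were overlapped. The 116.7 Mb bin of chromosome 11 held 3 day 0 peaks within 1.8 kb, all in St6galnac1, which encodes a sialyltransferase of O-linked glycans. This bin had 8 day 20 peaks, the most after the Sfi1 and chromosome 9 bins, and none touched a day 0 peak.

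The 75 Mb bin of chromosome 15, which holds Ly6c1, a surface antigen of myeloid and endothelial cells, had 3 day 0 peaks of 221 to 433 bp outside genes. A day 20 peak of 886 bp covered 2 of them. The 123.9 Mb bin of chromosome 9 had 3 day 0 peaks, 1 of them in the noncoding RNA Gm51701, and 2 lay under 1 day 20 peak of 2284 bp. This bin also holds the chemokine receptor genes Ccr1 and Ccr1l1. In neither bin was the named receptor or antigen gene itself overlapped by a day 0 peak. The 8.2 Mb bin of chromosome 3 held 3 day 0 peaks within 592 bp, outside genes, and no day 20 peak.

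None of the genes that define cartilage lay in the clusters. Of 20 cartilage genes, 0 carried a clustered day 0 peak, 2 carried any day 0 peak (Sox9 and Hapln1) and 15 carried a day 20 peak, beside 40.5% of all protein-coding genes. Sox9, the master regulator of chondrogenesis, had 1 day 0 and 1 day 20 peak, and Hapln1, the link protein of aggrecan, had 1 and 3. Of 8 TET, DNMT and related genes, whose products set, maintain, oxidise or help to remove cytosine methylation, 0 carried a clustered peak, 1 carried any day 0 peak (Tet1, with 2) and 8 carried a day 20 peak. Genes differ in length, and longer ones have more room for a peak, so these day 20 counts are a description. As 14 of all 21900 protein-coding genes held a clustered peak, a count of 0 in lists of this size is no result about their members.

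The mitochondrial set differed from the nuclear clusters in width. Its 8 day 0 peaks measured 313 to 3048 bp, with a median of 1216 bp, and covered 9.69 kb. The 4 day 20 peaks measured 353 to 1142 bp and covered 2.4 kb. A day 20 peak overlapped 3 of the 8 day 0 peaks (37.5%, 13.7 to 69.4%). The day 0 peaks covered the ribosomal RNA gene mt-Rnr1 in full and 85.1% of mt-Rnr2. They also covered ND1 in full and 98.4% of ND5, which encode subunits of respiratory complex I, and CYTB, a subunit of complex III, in full. At day 20, 48.2% of ND1 and 62.6% of ND5 were covered, and mt-Rnr1, mt-Rnr2 and CYTB were not. From COX2 to ND4L neither stage had a peak. How many copies of mitochondrial, ribosomal or chromosome-end sequence the cells carried was not analysed here, and its part in these peak counts was not tested.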

How the data were processed

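Mouse ATDC5 DNA enriched for 5hmC was sequenced in 4 libraries, 2 per stage. Per the file headers, the authors merged the samples of each stage and listed 10-fold enriched peaks. The sources used here do not give what the 10-fold is relative to, or whether the day 19 library entered the day 20 list. Per the submitters' processing notes, which give no role or order, the build was GRCm38 and the tools included BWA, cutadapt, FastQC and MACS 1.4.2. The deposited values are start and end positions in base pairs, with a gene symbol and accession per peak. Depth is unknown.

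The day 20 list gave 56695 peaks, and 3 entries without a readable end were left out, none in a dense bin. Widths count both end bases. Members are day 0 peaks in 100 kb bins holding 3 or more. Day 20 peaks were counted in the bin of their start, and overlap of at least 1 bp with any day 20 peak counted as a match. Positions of 49980 genes were read from RefSeq (GRCm38.p6), without strand or exons. Of these, 386 nuclear genes with coordinates below every nuclear peak were left out of the chromosome spans. Every bin is described. Genes are named where the authors assigned a clustered peak to them or such a peak overlaps them, at most 4 a bin. Not every such gene is named, but those that a fixed list holds always are. Other genes of a bin, and list genes without a clustered peak, were named after their values were seen. Pisd-ps3, a listed gene, had no match in the gene table. Members and lists were chosen with earlier results of these data known. No p-value was computed. Bin width, threshold, bin edges, merging and the overlap rule were varied. The counting steps were tested on simulated data. Genome sequence under peaks outside promoter windows was not used here, so base composition and repeat content are not reported. Python 3.11.15, numpy 2.4.6, scipy 1.17.1 and matplotlib 3.10.9 were used.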

Additional observations from a re-analysis of the deposited data

How the results depend on the processing

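Leaving out bins, and gene counts by protein-coding genes or the authors' symbols, were chosen after seeing the data. Across 9 results and 14 settings, 66 of 88 values stayed within their interval or within 1.5 times the count. This count includes a setting with autosomes only. It could not move the values of the clustered peaks, since every dense nuclear bin lay on an autosome. The overlapped share stayed lower in clustered than in other day 0 peaks in every setting run. With bins of 200 kb the bins held 129 day 20 peaks, and with a threshold of 4 there were 22 bins. With day 0 peaks within 1 kb merged, 108 clustered peaks remained, 25% overlapped (difference -28.7 points), the median width was 153 bp and 56.5% lay in genes. Counting day 20 peaks within 1 kb as matches gave 47.3% of clustered and 58.9% of other peaks (-11.6 points), and day 20 peaks of at least the median width gave 22.3% and 37.0%. Without the densest bin the values were 21.6% overlapped (-32.6 points), a median of 144 bp and 52.6% in genes. Without the 2 densest bins they were 142 peaks, 20.4% overlapped (-33.9 points) and 48 day 20 peaks. Protein-coding genes held 25% of clustered peaks, and the authors' symbols covered 33.9%. The causes were not tested. No paired analysis was possible because each stage has 1 list of merged libraries, and for the same reason no replicate could be left out. The depth behind a peak is unknown, so a missing peak does not show missing 5hmC.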

Other observations

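The dense nuclear bins held 118 annotated genes, of which 53 were pseudogenes (44.9%) and 39 protein-coding (33.1%). In the whole gene table pseudogenes made up 21.2% and protein-coding genes 43.8%. Predicted gene models with a Gm number were 75 of the 118 (63.6%), beside 43.6% in the table. Clustered peaks touched 35 genes, 14 protein-coding, 13 pseudogenes and 8 long noncoding RNAs. Pseudogenes were 37.1% of these 35 genes, above the 21.2% of the table. Long noncoding RNAs were 22.9%, beside 25.5% in the table, and the protein-coding share was also slightly below the 43.8% there. Models with a Gm number were 15 of the 35 (42.9%), close to the 43.6% of the table, unlike their share of all genes in the bins. Genes named Zfp (zinc finger proteins) numbered 2 in the bins and vomeronasal receptor pseudogenes 3, and none of these was touched.

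Of the 74 day 20 peaks that started in the dense nuclear bins, 12 overlapped 2 or more day 0 peaks, among them some in the densest bin. Of the 56617 day 20 peaks that started outside dense bins, 14 did so. Among these is the peak from 2999911 to 3001543, which reached into the densest bin. The rule chose bins rich in day 0 peaks, so nothing is read from this contrast. The median width of the 74 was 669 bp (quartiles 431.25 and 927.75 bp), beside 591 bp in the whole day 20 list.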
